A study of Mus musculus with 8 samples.

Results

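Toll-like receptors are membrane proteins with which macrophages sense microbial molecules, and the 10 receptors described here (Tlr1 to Tlr9 and Tlr13) were taken from the deposited expression table by gene symbol. Each symbol matched 1 locus, so the receptors make up 10 of the 23735 loci of the table. Expression was measured by RNA sequencing in peritoneal macrophages of C57BL/6J mice aged 8 weeks, cells of the abdominal cavity that take up microbes and dead cells. The 4 groups were macrophage MED1 knockout cells (labelled MED1-/- and MED1ΔMac, called KO) treated with lipopolysaccharide (LPS, a bacterial cell wall component) at 50 ng/mL for 6 h, KO cells without LPS, MED1fl/fl control cells (labelled WT) with the same LPS treatment, and WT cells without LPS. Each group had 2 libraries, lettered A and B. MED1 is a subunit of Mediator, the complex that connects transcription factors with RNA polymerase. The sources used here do not give the driver of the macrophage deletion or say that the libraries of a group came from separate animals, so p-values measure only the spread between these libraries, which may be technical.

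The receptors divide by where they meet their ligands. Tlr1, Tlr2, Tlr4, Tlr5 and Tlr6 work at the cell surface and bind bacterial lipids, lipoproteins or flagellin. Tlr3, Tlr7, Tlr8, Tlr9 and Tlr13 work in endosomes and bind nucleic acids of microbes that have been taken up. Endosomal receptors are carried from the endoplasmic reticulum by the chaperone UNC93B1 and are cut by lysosomal proteases before they signal. Most members signal through the adaptor MYD88, Tlr3 through TRIF (gene Ticam1), and Tlr4, the receptor for LPS, through both.

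Libraries held an estimated 6.98 to 14.36 M reads, and the A and B libraries of a group correlated at r = 0.93 to 0.966 across loci, which are not independent. Levels are given in RPKM (reads for each kilobase of a transcript, relative to the reads of the library) as the authors computed them, so that levels can be set side by side between genes. Apart from Tlr5, no receptor value rested on fewer than 84.7 estimated reads, which gives a counting error of 10.9% or less. Of the macrophage markers, Emr1 was at 278 to 709 RPKM, Csf1r at 249 to 948 RPKM and Itgam at 401 to 703 RPKM. Cd68 was at 222 to 1452 RPKM and Lyz2 at 4547 RPKM or more. Mertk and Fcgr1 were low, at 6.3 to 25.3 RPKM and 0.455 to 17.3 RPKM. Med1 itself had 24.4 and 20.3 RPKM in KO with LPS, 17.6 and 23.4 RPKM in KO untreated, 24.7 and 21.6 RPKM in WT with LPS, and 21.7 and 24.8 RPKM in WT untreated. Averaged over treatments, KO minus WT was -0.12 for Med1 in log2 units (limma adjusted p = 0.999). The sources used here do not name the deleted exons, and a value over the whole locus neither measures nor checks loss of a working transcript. KO in the following means libraries labelled as knockout.

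In untreated cells of both genotypes Tlr7, a receptor for single-stranded RNA, was the most abundant receptor transcript by group mean, and with LPS Tlr2, a receptor for bacterial lipoproteins, took that place. In KO untreated B, Tlr2 (149 RPKM) and Tlr7 (148 RPKM) were level. In KO with LPS the order of mean levels was Tlr2 (240 ± 16.1 RPKM, SD, n = 2), Tlr7 (123 ± 12.5), Tlr4 (74.9 ± 4.52), Tlr13 (49.9 ± 11.1), Tlr1 (29.6 ± 6.75), Tlr6 (20.0 ± 2.41), Tlr9 (14.5 ± 3.98), Tlr8 (7.73 ± 0.118) and Tlr3 (4.03 ± 1.09), and no neighbours in that order overlapped. In KO untreated the order was Tlr7 (183 ± 49.5 RPKM), Tlr13 (141 ± 10.1), Tlr2 (119 ± 43.0), Tlr8 (72.7 ± 8.91), Tlr4 (44.7 ± 12.7), Tlr1 (25.0 ± 15.6), Tlr6 (12.9 ± 1.21), Tlr9 (11.5 ± 7.88) and Tlr3 (4.98 ± 1.46). The libraries of Tlr13 and Tlr2 overlapped there, as did those of Tlr4 and Tlr1, Tlr6 and Tlr9, and Tlr9 and Tlr3. In WT with LPS it was Tlr2 (474 ± 20.7 RPKM), Tlr7 (117 ± 71.4), Tlr4 (99.1 ± 3.05), Tlr13 (42.0 ± 25.6), Tlr8 (37.2 ± 27.1), Tlr1 (20.9 ± 1.10), Tlr6 (19.5 ± 5.13), Tlr9 (7.09 ± 0.635) and Tlr3 (3.60 ± 1.12). Tlr7 and Tlr4, Tlr13 and Tlr8, Tlr8 and Tlr1, and Tlr1 and Tlr6 overlapped in that group. In WT untreated it was Tlr7 (282 ± 26.3 RPKM), Tlr2 (177 ± 90.8), Tlr13 (170 ± 5.43), Tlr8 (103 ± 19.7), Tlr4 (44.7 ± 1.22), Tlr1 (16.3 ± 1.94), Tlr6 (15.3 ± 3.10), Tlr9 (6.40 ± 1.56) and Tlr3 (3.67 ± 0.155), with overlap between Tlr2 and Tlr13 and between Tlr1 and Tlr6. Tlr5 was last in all groups.

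**Figure D1:**
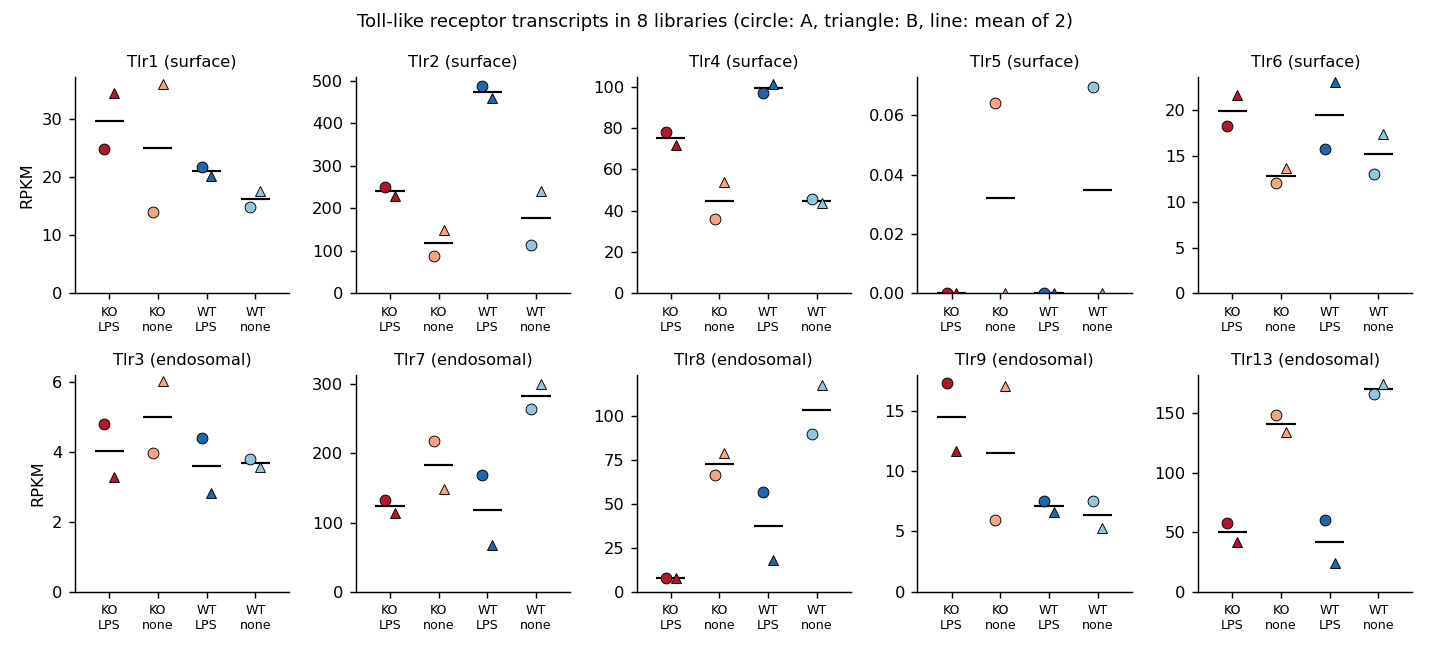
RPKM (vertical axis, starting at 0, with its own range for each gene) of the 10 receptors in KO LPS, KO untreated (none), WT LPS and WT untreated libraries, with circles for A, triangles for B and a line for the mean of 2. Tlr2 and Tlr4 lie above and Tlr7, Tlr8 and Tlr13 below their untreated libraries in the LPS libraries of both genotypes.

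Summed over the family, the endosomal receptors made up 37.1% and 33.5% of receptor RPKM in KO with LPS, against 74.7% and 60.4% in KO untreated. The share was 32.2% and 16.4% in WT with LPS, against 74.0% and 65.3% in WT untreated. LPS libraries and untreated libraries did not overlap in either genotype, and a share within a library does not change when that library is rescaled. The endosomal sum was 220 and 179 RPKM in KO with LPS, against 443 and 384 RPKM in KO untreated. It was 296 and 118 RPKM in WT with LPS, against 531 and 601 RPKM in WT untreated. The surface sum moved the other way, with 372 and 356 RPKM in KO with LPS, against 150 and 253 RPKM in KO untreated. In WT the surface sum was 623 and 604 RPKM with LPS, against 186 and 320 RPKM untreated. Tlr2 alone gave 58.8% to 78.4% of the surface sum in the 8 libraries, and Tlr7 gave 38.6% to 63.9% of the endosomal sum. These sums are given without a test, because the members were chosen with results of these data known.

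**Figure D2:**
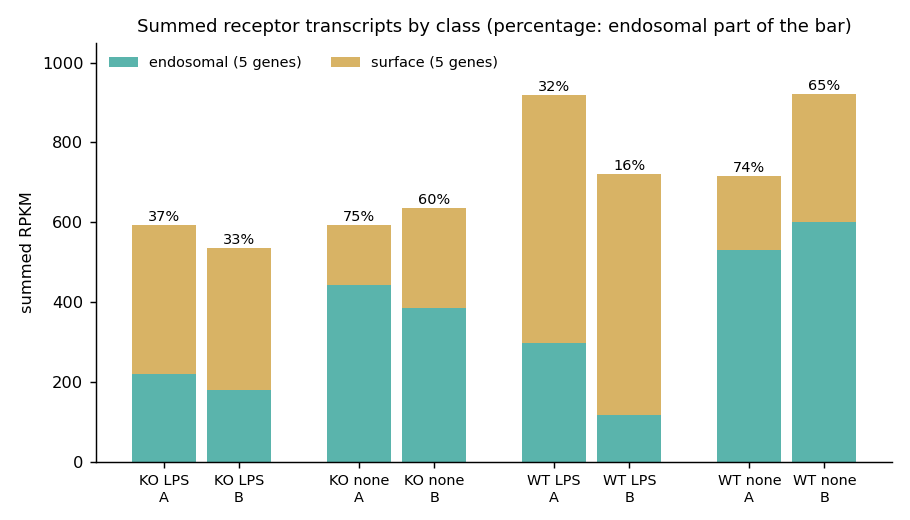
Summed RPKM of the 5 endosomal and the 5 surface receptors, stacked for each library in the groups KO LPS, KO untreated (none), WT LPS and WT untreated, with the endosomal percentage printed above each bar. The endosomal part is 16.4% to 37.1% in the 4 LPS libraries and 60.4% to 74.7% in the 4 untreated libraries.

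The response to LPS asks how the receptors change once cells have met a ligand of the family. Tested on the log2(RPKM + 1) scale and averaged over genotypes, 2 surface receptors rose, Tlr2 and Tlr4, and 3 endosomal receptors fell, Tlr7, Tlr8 and Tlr13, while Tlr1, Tlr6, Tlr3 and Tlr9 did not pass. Passing, or being called, means a Benjamini-Hochberg adjusted p under 0.05 in limma over the 11272 loci that reached 1 RPKM in 2 or more libraries, and 9 of the 10 receptors were above that limit. Of all these loci, 8.46% were called higher and 21.8% lower, which is 954 and 2456 loci. That split depends on scaling, with 1551 higher and 1488 lower after median-ratio scaling and 1352 and 1732 after quantile normalization. The median log2 change was 0.70 over the 4 surface receptors tested and -0.97 over the 5 endosomal ones, beside -0.26 over all loci. With LPS in KO alone 1 receptor was called lower, Tlr8, and 0 were called higher, where 3.31% of all loci were called higher and 3.31% lower. With LPS in WT alone Tlr4 was called higher and Tlr13 lower, where 3.17% of all loci were called higher and 3.14% lower. With the letter as a block, 2 receptors were called in KO (Tlr8 and Tlr13) and 5 in WT (Tlr2, Tlr4, Tlr7, Tlr8 and Tlr13), where 5.25% of all loci were then called higher and 9.04% lower in KO, and 5.71% higher and 10.4% lower in WT. In bulk RNA, fewer cells of a type and less RNA per cell cannot be told apart.

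Without regard to p, 2 receptors (Tlr2 and Tlr4) had both LPS libraries above both untreated libraries in each genotype, as did 11.1% of all loci. Another 3 receptors (Tlr7, Tlr8 and Tlr13) had them below in each genotype, as did 34.6% of all loci.

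**Figure D3:**
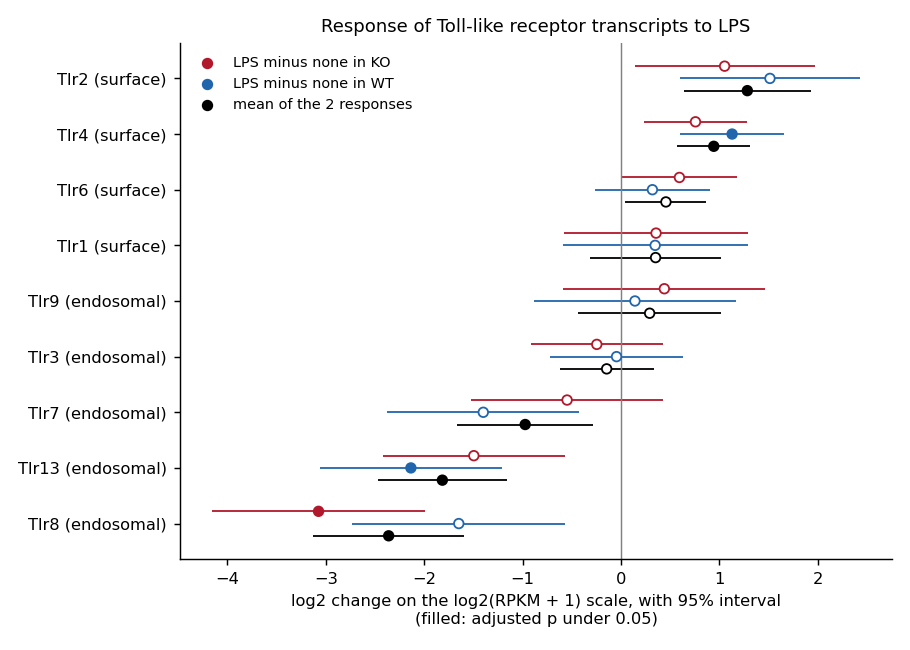
Log2 change with LPS on the log2(RPKM + 1) scale (horizontal axis, LPS minus untreated, bars: 95% intervals) for the 9 receptors tested, in KO, in WT and averaged over genotypes, filled where the adjusted p is under 0.05. Averaged changes run from 1.29 for Tlr2 to -2.36 for Tlr8, and the 4 surface receptors tested lie to the right of the zero line.

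Among surface receptors, Tlr2 (locus XLOC_013575, mm9 chromosome 3, 83640195 to 83645689, minus strand) had the largest change. It had 251 and 228 RPKM in KO with LPS, against 88.3 and 149 RPKM in KO untreated, and 489 and 459 RPKM in WT with LPS, against 113 and 241 RPKM in WT untreated. LPS libraries were above untreated ones within each genotype, although WT untreated B lay between KO LPS B and KO LPS A. Averaged over genotypes Tlr2 rose by 1.29 on the log2 scale (SE 0.28, adjusted p = 0.0155), and without KO LPS B the adjusted p was 0.0555. The separate changes were 1.05 in KO (SE 0.39, adjusted p = 0.131) and 1.52 in WT (SE 0.39, adjusted p = 0.063, and 0.0256 with the letter as a block), and the WT change also passed with median-ratio scaling. They were 0.68 without KO untreated A in KO and 0.97 without WT untreated A in WT.

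Tlr4 (XLOC_014156, chromosome 4, 66488618 to 66591318, plus strand) is the LPS receptor itself. It had 78.1 and 71.7 RPKM in KO with LPS, against 35.8 and 53.7 RPKM in KO untreated, and 97.0 and 101 RPKM in WT with LPS, against 45.6 and 43.9 RPKM in WT untreated. LPS libraries did not overlap with untreated ones in either genotype, and the WT libraries lay close together within each group. Averaged over genotypes Tlr4 rose by 0.94 (SE 0.16, adjusted p = 0.00792), and it passed in 8 of 8 fits that left out 1 library. In WT alone it rose by 1.13 (SE 0.23, adjusted p = 0.0334), and in KO the change was 0.76 (SE 0.23, adjusted p = 0.0836, 95% interval 0.23 to 1.29). With median-ratio scaling the KO change was 1.06 and passed (limma adjusted p = 0.0407). The call in WT was lost without KO LPS A, KO LPS B, WT LPS B or either WT untreated library, where the adjusted p reached 0.184.

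Tlr1 and Tlr6, the partners with which Tlr2 forms lipopeptide-binding pairs, changed less. Tlr6 (XLOC_016237, chromosome 5, 65344345 to 65351287, minus strand) had 18.3 and 21.7 RPKM in KO with LPS, against 12.0 and 13.7 RPKM in KO untreated, and 15.8 and 23.1 RPKM in WT with LPS, against 13.1 and 17.5 RPKM in WT untreated. KO libraries with LPS were above KO untreated ones, while the WT groups overlapped. The averaged change was 0.46 (SE 0.18, adjusted p = 0.0854), and it passed with the letter as a block (adjusted p = 0.0329). Tlr1 (XLOC_016236, chromosome 5, 65316050 to 65324000, minus strand) had 24.8 and 34.4 RPKM in KO with LPS, against 14.01 and 36.0 RPKM in KO untreated, and 21.7 and 20.2 RPKM in WT with LPS, against 14.9 and 17.6 RPKM in WT untreated. KO untreated B was the highest of all libraries for Tlr1. The averaged change was 0.35 (SE 0.28, adjusted p = 0.361), and without KO untreated B it was 0.68 (adjusted p = 0.0396). Tlr1 and Tlr6 lie beside each other and share 454 windows of 50 identical bases, 17.4% of the Tlr1 transcript windows and 17.8% of those of Tlr6, so reads could be split between them and both levels are uncertain. The other 8 receptors share no such window with another annotated protein-coding transcript.

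Tlr5, the flagellin receptor (XLOC_000613, chromosome 1, 184884919 to 184906175, plus strand), was listed at 0 in both KO LPS libraries and both WT LPS libraries. It had 0.0640 and 0 RPKM in KO untreated and 0.0693 and 0 RPKM in WT untreated, which is 5 reads in all. A count of 0 allows up to 3 reads, or 0.0837 to 0.134 RPKM in the libraries at 0, for counting error only, so no difference in Tlr5 was detectable at this depth. The remaining mouse members Tlr11 and Tlr12 rested on 8 and 27 reads over all libraries and were below the limit as well.

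Among endosomal receptors, Tlr8 (XLOC_023648, chromosome X, 163680626 to 163702261, minus strand), known as a sensor of RNA breakdown products in humans and less well understood in mice, had the largest change of the family averaged over genotypes and in KO, while in WT Tlr13 changed more. It had 7.81 and 7.64 RPKM in KO with LPS, against 66.4 and 79.0 RPKM in KO untreated, and 56.3 and 18.0 RPKM in WT with LPS, against 89.3 and 117 RPKM in WT untreated. Every LPS library was lower than every untreated library. Both KO LPS libraries were lower than any other library, and the WT LPS libraries were far apart from each other. Averaged over genotypes Tlr8 fell by 2.36 on the log2 scale (SE 0.33, adjusted p = 0.00431), and it passed in 8 of 8 fits that left out 1 library. In KO it fell by 3.07 (SE 0.46, adjusted p = 0.0166), with a call in each of the 4 fits that left out a WT library and in 0 of the 4 that left out a KO library, where the adjusted p went up to 0.129. In WT the change was -1.65 (SE 0.46, adjusted p = 0.0742, and 0.0496 with the letter as a block), with -0.66 between the A libraries and -2.64 between the B libraries.

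Tlr13 (XLOC_022969, chromosome X, 103338543 to 103355832, plus strand) recognises a stretch of bacterial ribosomal RNA. It had 57.7 and 42.1 RPKM in KO with LPS, against 148 and 134 RPKM in KO untreated, and 60.1 and 23.9 RPKM in WT with LPS, against 166 and 174 RPKM in WT untreated. All LPS libraries were lower than all untreated libraries. Averaged over genotypes Tlr13 fell by 1.81 (SE 0.28, adjusted p = 0.006), and it passed in 8 of 8 fits that left out 1 library. It fell by 2.13 in WT (SE 0.40, adjusted p = 0.0276), a call lost without WT LPS B or either WT untreated library (adjusted p up to 0.152), and in KO the change was -1.50 (SE 0.40, adjusted p = 0.0658, and 0.0263 with the letter as a block).

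Tlr7 (XLOC_023649, chromosome X, 163742861 to 163768490, minus strand), which senses single-stranded RNA, had 132 and 114 RPKM in KO with LPS, against 218 and 148 RPKM in KO untreated, and 168 and 67.0 RPKM in WT with LPS, against 264 and 301 RPKM in WT untreated. LPS libraries were lower in both genotypes, but KO LPS A and KO untreated B lay close to each other. Averaged over genotypes Tlr7 fell by 0.97 (SE 0.29, adjusted p = 0.0437). That call was kept in 1 of 8 fits that left out a library, the fit without WT LPS A, and the adjusted p reached 0.136 in the other 7. The separate changes were -0.55 in KO (SE 0.42, adjusted p = 0.399) and -1.40 in WT (SE 0.42, adjusted p = 0.0839, and 0.0353 with the letter as a block). In WT the change was -0.65 between the A libraries and -2.15 between the B libraries.

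Tlr3 and Tlr9 did not pass in any of the LPS contrasts. Tlr3, the sensor of double-stranded RNA (XLOC_020903, chromosome 8, 46481019 to 46495962, minus strand), had 4.80 and 3.26 RPKM in KO with LPS, against 3.95 and 6.01 RPKM in KO untreated, and 4.39 and 2.81 RPKM in WT with LPS, against 3.78 and 3.56 RPKM in WT untreated. The groups overlapped in both genotypes, and the averaged change was -0.14 (95% interval -0.62 to 0.33, adjusted p = 0.606), with 0.09 after median-ratio scaling. Tlr9, the sensor of unmethylated CpG DNA (XLOC_021809, chromosome 9, 106124929 to 106129207, plus strand), had 17.3 and 11.7 RPKM in KO with LPS, against 5.96 and 17.1 RPKM in KO untreated, and 7.54 and 6.64 RPKM in WT with LPS, against 7.50 and 5.29 RPKM in WT untreated. It was highest in 3 KO libraries, and its averaged change with LPS was 0.29 (95% interval -0.43 to 1.02, adjusted p = 0.489).

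The 3 receptors that fell are the 3 that lie on the X chromosome. Among tested loci with an annotated position, the 331 X-linked ones had a median averaged LPS change of -0.268 with 21.5% called lower, beside -0.265 and 22.1% for the 9979 autosomal ones. Tlr7 and Tlr8 are neighbours on the minus strand, and no annotated gene overlaps any of the 10 receptors.

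Upstream sequence is shown for the surface receptor with the largest change. It is also shown for both endosomal receptors that passed, averaged over genotypes, under each setting run. Upstream sequence is among the parts of these genes where transcription factors of macrophages could act. Sequences of 250 bases before the gene start came from RefSeq (GRCm38.p6), and 8 of the 10 receptors had one there, Tlr1 and Tlr6 with 2 starts each. Tlr4 and Tlr7 had none, although Tlr4 also passed, averaged over genotypes, under each setting run. The sequences were placed on mm9 by an exact match. Each of the following runs 5′ to 3′ on the strand of its gene and stops before the first annotated exon. Capitals mark the motif matches.
Tlr2 (chr3:83645690-83645780, minus strand): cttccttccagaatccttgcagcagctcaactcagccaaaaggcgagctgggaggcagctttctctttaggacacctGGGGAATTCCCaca
Tlr13 (chrX:103338364-103338542, plus strand): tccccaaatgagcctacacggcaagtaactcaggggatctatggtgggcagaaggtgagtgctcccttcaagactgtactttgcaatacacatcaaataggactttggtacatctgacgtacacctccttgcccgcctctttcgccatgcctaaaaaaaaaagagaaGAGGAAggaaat
Tlr8 (chrX:163702262-163702511, minus strand): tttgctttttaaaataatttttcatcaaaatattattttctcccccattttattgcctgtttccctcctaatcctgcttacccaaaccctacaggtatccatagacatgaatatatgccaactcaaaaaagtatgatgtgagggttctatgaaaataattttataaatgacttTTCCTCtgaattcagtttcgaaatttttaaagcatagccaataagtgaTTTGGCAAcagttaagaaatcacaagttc
The capitals in Tlr2 are 2 matches to the NF-kB motif GGGNNNNNCC that overlap, from 173 to 163 bases before the RefSeq start, and NF-kB is the factor best known for responding to Toll-like receptors. In Tlr13 the capitals mark the PU.1 core GAGGAA, 83 to 78 bases before the start. PU.1 is a factor of the macrophage lineage. In Tlr8 they mark a PU.1 core on the opposite strand, 77 to 72 bases before the start, and a match to the C/EBP motif TTGCNNAA, also on the opposite strand, 29 to 22 bases before it. Both strands were searched in 32851 windows of this length. The NF-kB motif was found in 45.8% of them, the PU.1 core in 23.3%, the C/EBP motif in 9.56%, the AP-1 motif TGANTCA in 6.75% and the interferon-response core GAAANNGAAA in 2.98%. Over their 250 bases the NF-kB motif was also found in Tlr3, Tlr5 and Tlr6, the PU.1 core in Tlr1 and Tlr9, the C/EBP motif in Tlr3 and Tlr6, the AP-1 motif in Tlr9 and the interferon-response core in Tlr6. A match is a run of letters and does not show that a factor was bound.

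The comparison of KO with WT asks whether MED1 loss alters the receptors. Of the 9 receptors tested, limma called 0 in any comparison of genotypes and 0 in the interaction, which is the LPS change in KO minus that in WT. The background was as low, with 0.00887% of all loci called with LPS, 0.0266% without LPS, 0.0355% averaged over treatments and 0.0355% in the interaction. At an unadjusted limma p under 0.05 there were 2 receptors with LPS (Tlr2 and Tlr8), beside 498 of the 11272 loci tested. It was 0 receptors without LPS, beside 94 of the 11272 loci. Averaged over treatments it was 3 (Tlr2, Tlr8 and Tlr9), beside 472 of the 11272 loci. In the interaction it was 0, beside 184 of the 11272 loci. These results do not show that the genotypes were alike, as the intervals below are wide.

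With LPS, Tlr8 was at 7.81 and 7.64 RPKM in KO, against 56.3 and 18.0 RPKM in WT. The KO libraries lay close together and below both WT libraries, which were far apart from each other. On the log2 scale KO minus WT was -1.92 (SE 0.46, 95% interval -3.00 to -0.83, adjusted p = 0.924), and -1.12 without WT LPS A. In the interaction Tlr8 had -1.43 (95% interval -2.96 to 0.11, adjusted p = 1). Tlr2 had 251 and 228 RPKM in KO with LPS, against 489 and 459 RPKM in WT with LPS, with no overlap. Its difference was -0.98 (SE 0.39, 95% interval -1.90 to -0.07, adjusted p = 1). Tlr4 had 78.1 and 71.7 RPKM in KO with LPS, against 97.0 and 101 RPKM in WT with LPS, a difference of -0.40 (95% interval -0.93 to 0.13). Tlr9 had 17.3 and 11.7 RPKM in KO with LPS, against 7.54 and 6.64 RPKM in WT with LPS, a difference of 0.92 (95% interval -0.11 to 1.95). Tlr1 also had both KO libraries above both WT ones, with a difference of 0.46 (95% interval -0.48 to 1.40). In all, 5 of the 9 receptors tested did not overlap between genotypes with LPS, 2 higher and 3 lower in KO, as was the case for 30.4% of all loci. Tlr3, Tlr6, Tlr7 and Tlr13 overlapped, with differences of 0.05 to 0.37.

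Without LPS, 4 of the 9 receptors tested did not overlap between genotypes, beside 23.6% of all loci. Tlr7 had 218 and 148 RPKM in KO untreated, against 264 and 301 RPKM in WT untreated, a difference of -0.64 (95% interval -1.62 to 0.33). Tlr8 had -0.49 (95% interval -1.58 to 0.59) and Tlr13 had -0.27 (95% interval -1.20 to 0.66), both with lower values in KO. Tlr3 had 0.34 (95% interval -0.34 to 1.01), with higher values in KO. The untreated values of Tlr4 had the same mean in both genotypes to 3 digits, 44.7 ± 12.7 RPKM in KO and 44.7 ± 1.22 RPKM in WT (SD, n = 2 each), with a difference of -0.03 (95% interval -0.56 to 0.50). The sum of 7 macrophage markers was 7158 and 6156 RPKM in KO with LPS, against 19580 and 14960 RPKM in WT with LPS, and 11310 and 17880 RPKM in KO untreated, against 31630 and 35310 RPKM in WT untreated. Most of each sum was the lysozyme gene Lyz2, and none of the 7 was at 0 in every library. The other 6 summed to 2047 and 1609 RPKM in KO with LPS, against 2247 and 1725 RPKM in WT with LPS. They summed to 2810 and 2883 RPKM in KO untreated, against 3046 and 2994 RPKM in WT untreated. These sums overlapped between genotypes with LPS and differed little without it. Single markers did not all follow the sum. Emr1 was at 454 and 454 RPKM in KO with LPS, against 450 and 424 RPKM in WT with LPS. Csf1r was at 339.4 and 248.7 RPKM in KO with LPS, against 645.1 and 356.5 RPKM in WT with LPS. Itgam, Mertk and Fcgr1 were likewise lower in KO with LPS without overlap, while Cd68 overlapped. The part of these markers in the receptor values was not tested.

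**Figure D4:**
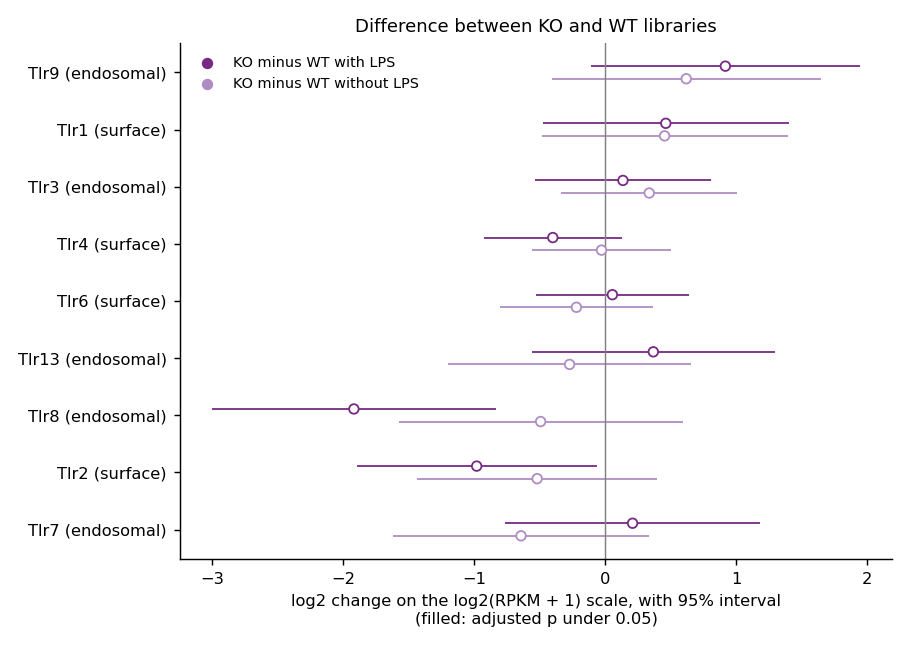
Log2 difference between genotypes on the log2(RPKM + 1) scale (horizontal axis, KO minus WT, bars: 95% intervals) for the 9 receptors tested, with LPS and without LPS, with open points because none passed. The difference farthest from the zero line is that of Tlr8 with LPS, at -1.92.

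Tlr9 and Tlr1 were high in the libraries that also had more RNA of B cells, which express both receptors. The sum of 8 B cell markers, none of them at 0, was 1493 and 1096 RPKM in KO with LPS and 619 and 1864 RPKM in KO untreated, against 655 and 451 RPKM in WT with LPS and 676 and 616 RPKM in WT untreated. KO LPS A, KO LPS B and KO untreated B had the 3 highest values of this sum, of Tlr9 and of Tlr1. The part of B cells in the values of Tlr9 and Tlr1 was not tested. Averaged over treatments the KO minus WT difference was 0.77 for Tlr9 (95% interval 0.04 to 1.50, adjusted p = 0.999) and 0.46 for Tlr1 (95% interval -0.21 to 1.12, adjusted p = 0.999). Without KO untreated B the difference in untreated cells was -0.07 for Tlr9 and -0.20 for Tlr1.

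**Figure D5:**
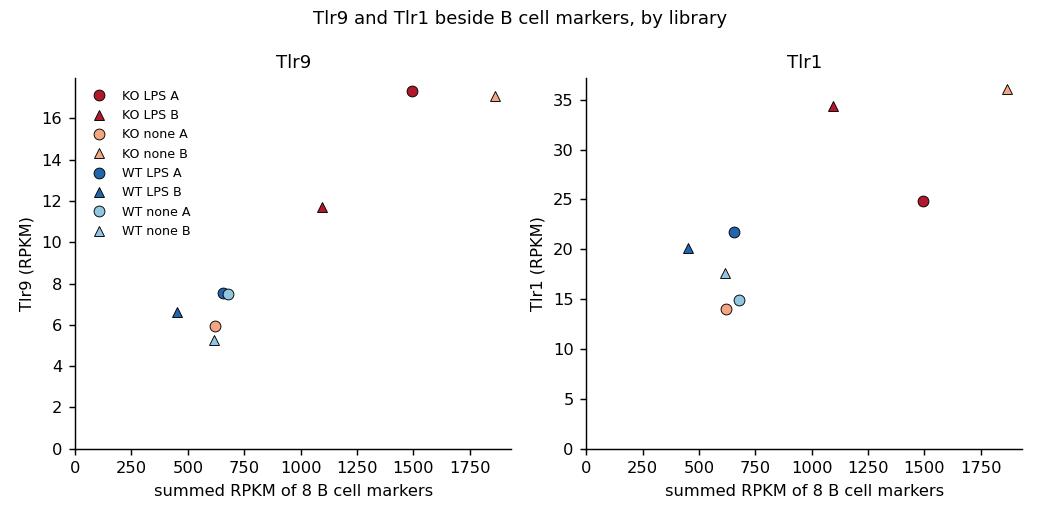
Tlr9 and Tlr1 (vertical axes, RPKM) against the summed RPKM of 8 B cell markers (horizontal axes) in the 8 libraries, with circles for A and triangles for B. The 3 libraries farthest right, KO LPS A, KO LPS B and KO untreated B, are the 3 highest for both receptors.

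Markers of other cells also differed between libraries. Mast cell markers (6 genes) summed to 3.06 and 71.7 RPKM in KO with LPS, 0.249 and 168 RPKM in KO untreated, 25.2 and 87.7 RPKM in WT with LPS, and 0.961 and 73.6 RPKM in WT untreated, so that the B library was the higher in each group. T and NK cell markers (6 genes) summed to 41.5 and 45.0 RPKM in KO with LPS, 16.8 and 76.4 RPKM in KO untreated, 17.7 and 21.4 RPKM in WT with LPS, and 21.5 and 28.4 RPKM in WT untreated. Conventional dendritic cell markers (5 genes) reached 19.0 RPKM in KO untreated B, the library in which Tlr3 was highest, and 18.4 RPKM in WT untreated B, in which it was not, beside 4.68 to 9.63 RPKM elsewhere. Siglech, which marks plasmacytoid dendritic cells, a cell type rich in Tlr7 and Tlr9, was at 0.110 RPKM or less in all libraries, while the 4 markers of that type summed to 89.5 to 162 RPKM, mostly from Bst2. Neutrophil markers (6 genes, Ngp at 0 throughout) summed to 0 to 29.4 RPKM and eosinophil markers (5 genes) to 5.89 to 30.4 RPKM. Markers of large peritoneal macrophages (6 genes) summed to 449 to 7008 RPKM, mostly from Serpinb2, which was at 3752 to 6914 RPKM with LPS and 334 to 764 RPKM untreated. Of the other 5, the lineage factor Gata6 was at 3.59 to 4.21 RPKM in the LPS libraries and 7.24 to 11.7 RPKM in the untreated ones, and Alox15 at 24.6 to 47.8 RPKM and 82.0 to 555 RPKM. Rarb and Icam2 were likewise lower in every LPS library than in every untreated one, as Tlr8 and Tlr13 were, while Timd4 overlapped. Those of small peritoneal macrophages and monocytes (5 genes) summed to 562 to 1898 RPKM, mostly from Fn1 (537 to 1757 RPKM). Of the other markers, Ly6c2 was at 4.3 to 131 RPKM and Irf4 at 9.04 to 30.5 RPKM. Ccr2 was at 0.157 to 15.4 RPKM and Cd226 at 0 to 1.74 RPKM. The part of these cells in the receptor values was not tested.

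The profiles of the receptors over the 8 libraries were compared by the root mean square distance of log2 values centred on each gene. The distance is not scaled for the size of change, so genes that change little lie near each other. No distance between pairs of all loci was computed beside it, so the values rank pairs only. Among the receptors, Tlr1 and Tlr9 were the closest pair (0.345), followed by Tlr4 and Tlr6 (0.364) and Tlr1 and Tlr3 (0.428). Then came Tlr2 and Tlr4 (0.432), Tlr1 and Tlr6 (0.434) and Tlr3 and Tlr9 (0.445). Tlr7 and Tlr13 were 0.461 apart, while Tlr8 was 0.876 from Tlr13 and farther from the rest. The genes nearest to Tlr2 were Smad6, Lpcat2 and Pid1 (0.202 to 0.241), and those nearest to Tlr4 were Taf15, Gtpbp2 and Ugcg (0.122 to 0.138). Tlr1 had Akna, Gramd3 and Ccr6 (0.116 to 0.146), and Tlr6 had Bcl10, Cep85l and Ankrd11 (0.113 to 0.129). Of the endosomal receptors, Tlr13 had Sord and Cd84 (0.107 and 0.152), and Tlr7 had Copz2, Npc1 and Mgat4b (0.187 to 0.201). Tlr8 had Tifab and Krt80 (0.475 and 0.485), farther away than the named genes of any other receptor. Tlr9 had Gramd2, Napsa and Trp53i11 (0.136 to 0.154), and Tlr3 had Ap4b1, Nt5dc1 and Gtf2h3 (0.0622 to 0.0775).

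Next came the genes whose products fold, carry and cut the receptors. Of 14 such genes tested, 0 rose and 7 fell averaged over genotypes, beside 21.8% of all loci that fell, with a median log2 change of -1.10 beside -0.26 for all loci. With the letter as a block 10 fell, beside 26.7% of all loci. In KO alone and in WT alone 0 were called, where 3.31% and 3.14% of all loci were called lower. With the block 6 and 8 were called lower, beside 9.04% and 10.4% of all loci. The averaged number was 4 after median-ratio scaling, where 1488 of the 11272 loci were called lower. It was also 4 with no filter, where 1842 loci were called lower among more loci tested. Fewer were also called without KO LPS B, WT LPS B or WT untreated A, where the list's median was -0.96, -0.81 and -0.98. The 7 were the endosomal carrier Unc93b1, the chaperone Cnpy3 and its relative Cnpy4, the proteases Lgmn and Ctss, the endolysosomal transporter Slc15a4 and the GTPase Rab7l1. Cnpy4 had 5.68 and 4.40 RPKM in KO with LPS, against 11.3 and 15.4 RPKM in KO untreated, and 6.69 and 3.08 RPKM in WT with LPS, against 14.8 and 11.7 RPKM in WT untreated (log2 change -1.29, SE 0.24, adjusted p = 0.0102). Lgmn, which cleaves Tlr9 among other substrates, had -1.85 (SE 0.49, adjusted p = 0.0301), and the adjusted p went up to 0.107 over the other settings. The cathepsins Ctsl and Ctsk had -1.50 and -1.26 (adjusted p = 0.0551 and 0.0547), and with the block both passed (0.00267 and 0.00923), as did Ctsb (0.00443).

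Accessory receptors went in both directions, with 2 of 10 up and 3 down, beside 8.46% of all loci up and 21.8% down. After median-ratio scaling it was 2 up and 1 down, where 1551 of the 11272 loci were up and 1488 down. The list's median of -0.21 became 0.08 with that scaling. Without KO LPS A, KO LPS B, WT LPS B or either WT untreated library it was 1 up and 1 down. Cd14, which hands LPS to the Tlr4 complex, had 1194 and 2164 RPKM in KO with LPS, against 339 and 266 RPKM in KO untreated, and 1666 and 3677 RPKM in WT with LPS, against 382 and 354 RPKM in WT untreated, and rose by 2.58 (SE 0.31, adjusted p = 0.00276). Cd180, a relative of Tlr4 that is abundant on B cells, had 58.8 and 32.8 RPKM in KO with LPS, against 119 and 159 RPKM in KO untreated, and 26.4 and 14.6 RPKM in WT with LPS, against 108 and 96.7 RPKM in WT untreated, and fell by 1.97 (SE 0.26, adjusted p = 0.00347). The LPS libraries of KO and WT did not overlap with untreated ones for either gene. Ly86, the partner of Cd180, had -0.78 (adjusted p = 0.101, and 0.0395 with the block). Cd36, a scavenger receptor that aids Tlr2 and Tlr6, fell by 1.18 (adjusted p = 0.0404), a call kept in 2 of 8 fits without 1 library. Msr1 rose and Itgb2 fell.

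Of the signalling genes near the receptors 6 of 18 were up and 2 down (median 0.18), against the same shares of all loci. Under the block it was 8 up and 2 down, beside 9.78% of all loci up and 26.7% down. After median-ratio scaling it was 10 up and 0 down, where 1551 of the 11272 loci were up and 1488 down. Without any 1 library other than WT LPS A, 3 to 5 were up and 0 or 1 down. Myd88, the adaptor of most receptors of the family, had 86.1 and 84.4 RPKM in KO with LPS, against 52.0 and 44.2 RPKM in KO untreated, and 107 and 112 RPKM in WT with LPS, against 55.1 and 45.5 RPKM in WT untreated, and rose by 0.96 (SE 0.13, adjusted p = 0.0044). Irf7, which drives interferon genes downstream of Tlr7 and Tlr9, rose by 1.80 (SE 0.26, adjusted p = 0.00479). Tab2, Tbk1, Traf6 and Irak2 also rose, and Tab1 and Irak4 fell. The kinase Ikbke (1.45, adjusted p = 0.0618) and the Tlr4 adaptor Ticam2 (-1.04, adjusted p = 0.0626) did not pass. With the block Ikbke (0.00538) and Pik3ap1 (0.0268) passed and Ticam2 (0.0602) did not.

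Inhibitors of the pathway had 3 of 11 up and 3 down (median 0.07), beside 8.46% and 21.8% of all loci. The counts were the same under either scaling and the block, where the shares of all loci differed as given above. Socs1, which damps cytokine and Toll-like receptor signals, rose by 4.12 (SE 0.50, adjusted p = 0.00285), the ubiquitin-editing enzyme Tnfaip3 by 2.65 (SE 0.37, adjusted p = 0.00441) and the kinase-like inhibitor Irak3 by 2.05 (SE 0.35, adjusted p = 0.00812). Cd300a, an inhibitory receptor, fell by 2.33 (SE 0.40, adjusted p = 0.00851), as did Mertk and Dok1. Cytosolic sensors, which detect nucleic acids or cell wall fragments inside the cell, had 6 of 11 up and 1 down (median 1.02). That is against 8.46% and 21.8% of all loci. Under the block the counts were the same, beside 9.78% of all loci up and 26.7% down. It was 6 up and 0 down under either scaling, 5 up and 3 down (Aim2, Mavs and Tmem173) without KO untreated A, and 4 up and 0 down without KO LPS A or either WT untreated library. The peptidoglycan sensor Nod2 had 18.1 and 18.6 RPKM in KO with LPS, against 1.87 and 3.34 RPKM in KO untreated, and 16.0 and 20.3 RPKM in WT with LPS, against 2.02 and 3.03 RPKM in WT untreated, and rose by 2.45 (SE 0.19, adjusted p = 0.000928). Zbp1 rose by 2.08 (adjusted p = 0.00862), the RNA sensor Ifih1 by 1.84 (adjusted p = 0.00242) and Ifi204 by 1.21 (adjusted p = 0.0246, up to 0.0736 over the other settings). Ddx58 and Dhx58 rose as well, and their partner Mavs fell. For these 5 lists together limma called 0 genes in any comparison of genotypes or in the interaction.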

How the data were processed

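RNA was sequenced in 8 libraries, 2 in each of 4 groups. Per the submitters' processing notes, bcl2fastq, TopHat2 2.0.14 and Cufflinks 2.2.1 were used with the mm9 genome. Neither the gene annotation nor the strandedness is stated in the sources used here. The authors deposited RPKM per locus in 1 table of 24192 lines, which hold 23735 loci, as 457 lines repeat a locus with the same values. No read counts were used here. Steps between low values gave an estimate of depth, where 85.3% of 2647 loci below 0.6 RPKM held only whole multiples of a step (tolerance 0.1 read plus 0.02 per read), with the deepest library at 14.36 M reads (quartiles 13.5 and 14.8 over 608 loci with 1 transcript). Reads of a sequencing library without molecular identifiers are not independent molecules, so floors and counting errors cover counting error only.

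Loci that reached 1 RPKM in 2 or more libraries (11272) were tested as log2(RPKM + 1), which understates changes of low genes, with limma 3.58.1 in R 4.3.3. The fit had 1 mean per group, moderated variances with a trend, two-sided tests and Benjamini-Hochberg adjustment over all loci at 0.05, and 7 contrasts. The limma script was tested on simulated data. The contrast averaged over genotypes uses the libraries of the separate LPS contrasts and is not independent of them, and likewise for genotype.

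All members were named. Of 5 pathway lists up to 4 genes with the largest averaged LPS change were named, and for each member the 3 genes with the nearest profile, some of which are not reported here. The other called genes of a list were named after their values were seen. Members, lists and 10 marker lists were chosen with earlier results of these data known. The sources do not say what the letters stand for. Deviations from group means correlated by letter in all 6 pairs of groups (r = 0.20 to 0.41 across loci), so the letter may pair libraries. The main fit does not use the letter, and its p-values treat the libraries as unpaired. A fit with the letter as a block is given where it changes a receptor call, or the call of a listed gene averaged over genotypes. Positions and exons came from GENCODE vM1 on mm9. Sequences were matched in Python 3.11.15 (pandas 2.3.3, numpy 2.4.6), and figures were drawn with matplotlib 3.10.9.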

Additional observations from a re-analysis of the deposited data

How the results depend on the processing

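The results were recomputed under 17 other settings, of which 8 left out 1 library each. Values are log2 changes or counts of receptors or loci called, and the cause of a change was not tested. The number of receptors called with LPS in KO was 1, and it was 2 with the replicate block, median-ratio scaling, quantile normalization or only the 4 libraries compared, and 0 to 2 without 1 library. In WT it was 2, with 5 under the replicate block, 0 with no filter, 0 with only the 4 libraries compared, and 0 to 4 without 1 library. Averaged over genotypes it was 5, and 3 (without KO LPS B) to 6 (without WT LPS A) without 1 library, with Tlr4, Tlr8 and Tlr13 called in each of these. With median-ratio scaling Tlr6 was called (adjusted p = 0.046) and Tlr7 was not (0.0924), and with no filter Tlr7 was not (0.0767). Median-ratio scaling moved the median LPS change of all loci by 0.27 in KO and 0.25 in WT, and quantile normalization by 0.22 and 0.21. The replicate block changed no receptor call other than those given.

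Loci called with LPS numbered 746 in KO, against 1611 with the replicate block, 262 with no filter, 462 with only 4 libraries and 15 (without KO LPS B) to 1546 (without WT LPS B) without 1 library. In WT they numbered 711, against 1818, 270, 130 and 9 (without WT untreated A) to 2242 (without WT LPS A). Averaged they numbered 3410, and 1089 to 4531 without 1 library. Without LPS, 3 loci were called between genotypes (3 to 5 without 1 library). With LPS it was 1, and 2 with no filter, 4 with only 4 libraries and 0 to 6 without 1 library. Averaged over treatments it was 4, and 2 with a pseudocount of 0.1 or a filter at 5 RPKM and 4 to 7 without 1 library. In the interaction it was 4, and 0 with that pseudocount or that filter and 1 to 7 without 1 library.

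Signs changed for receptor values that did not pass. Under median-ratio scaling and quantile normalization Tlr3 had 0.0061 and 0.080 in KO, 0.18 and 0.23 in WT, and 0.093 and 0.16 averaged. Median-ratio scaling gave -0.023 for Tlr6 between genotypes with LPS and -0.038 for Tlr13 averaged over treatments, and quantile normalization gave -0.027 for Tlr1 in the interaction. Without 1 library, LPS changes ranged in KO from -0.29 to 1.01 for Tlr1, -0.50 to 0.0065 for Tlr3 and -0.25 to 1.13 for Tlr9. In WT they ranged from -0.29 to 0.21 for Tlr3 and -0.074 to 0.36 for Tlr9, and averaged from -0.052 to 0.64 for Tlr9. Genotype differences without LPS ranged from -0.20 to 1.11 for Tlr1, -1.06 to 0.025 for Tlr2, -0.31 to 0.26 for Tlr4 and -0.071 to 1.31 for Tlr9. With LPS they ranged from -0.11 to 0.39 for Tlr3, -0.20 to 0.31 for Tlr6, -0.45 to 0.87 for Tlr7 and -0.28 to 1.01 for Tlr13. Averaged over treatments they ranged from -0.21 to 0.047 for Tlr6, -0.55 to 0.11 for Tlr7 and -0.28 to 0.37 for Tlr13. Interactions ranged from -0.64 to 0.66 for Tlr1, -1.01 to 0.083 for Tlr2, -0.45 to 0.051 for Tlr3, -0.39 to 0.99 for Tlr9 and -0.0075 to 1.29 for Tlr13. Tlr5 alone among the receptors was below the limit for testing in the main fit, and Tlr3 also fell below the filter at 5 RPKM. The part of depth in the values of the other receptors was not tested.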
